A study of Glycine max with 10 samples.

Results

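Among 54154 soybean genes with values, 218 had transcripts that were abundant in the embryonic axis of the dry seed and at least 2.4-fold lower only 3 hours after imbibition (3-HAI). These members were chosen by their values: at least 10 FPKM (sequenced fragments scaled to transcript length and to the mapped reads of the library) in dry seeds, a dry value at least 2.4 times that at 3-HAI, a 24-HAI value under 2.4 times that at 12-HAI, and a place outside the 100 genes highest in dry seeds. The embryonic axis, the part of the seed embryo that becomes root and shoot, was dissected from seeds of cultivar BRS 284 of Glycine max, either dry or imbibed for 3, 6, 12 or 24 hours. The 10 libraries were 2 biological replicates, each from pooled seeds, of 5 time points. The deposited values are 1 FPKM per gene and time point. They are taken to stand for both replicates, since each time point has a single column. The values therefore carry no error, the spread between replicates cannot be seen, and differences are given without p-values. The number of reads behind each gene's FPKM is unknown.

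Dry seeds hold messenger RNA that was made during maturation on the mother plant and kept through desiccation. Part of it belongs to the maturation programme, for example messages for late embryogenesis abundant proteins, which protect cells during drying, and part is thought to be translated when water returns. On imbibition, stored messages are translated or degraded while new transcription starts. Abscisic acid (ABA), the hormone that maintains maturation and dormancy, acts through transcription factors such as ABI3, whose messages are also stored.

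The Glyma identifiers could not be paired with gene names: 0 of the 218 members, and 0 of all genes, matched the RefSeq gene table, and the text of the study names none of the members. The members are therefore given by identifier, position and value, with no role. Positions are those of version 1.1 of the G. max genome, and whether they count from 0 or from 1 is not stated.

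A step in the dry-seed values bears on all that follows. Members lay on chromosomes 1 to 13 and none on chromosomes 14 to 20. Among genes with at least 1 FPKM at 3-HAI, the median ratio of 3-HAI to dry values ran between 0.862 and 0.895 on chromosomes 1 to 12, and between 1.77 and 1.85 on chromosomes 14 to 20. On chromosome 13 it changed within the chromosome. In 370 genes up to Glyma13g12815 (start 16487112) the median was 0.869, and in 1174 genes from Glyma13g13030 (start 16697698) onward it was 1.69, counting genes with at least 1 FPKM at both time points. With a minimum of 3 FPKM the change was placed between Glyma13g12160 (start 15651071) and Glyma13g12340 (start 16009147), so it is located only to within this stretch.

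Ratios between imbibed time points had no such step. The median after it, divided by the median before it, was 2.06 for 3-HAI over dry and 2.02 for 24-HAI over dry, but 0.994 for 6-HAI over 3-HAI, 0.993 for 12-HAI over 6-HAI and 0.986 for 24-HAI over 12-HAI. The step therefore lay in the dry values, which were lower, relative to all later ones, beyond this point of chromosome 13. Its cause was not tested. Nor was it tested whether the dry values are off beyond the step, before it or on both sides. The members' decreases from dry seeds, all before the step, may therefore be affected too. Among the 3152 genes beyond it with at least 10 FPKM in dry seeds, the largest decrease to 3-HAI was 2.35-fold, so 0 of them met the rule. The unplaced scaffolds held 28 genes of that level and 0 members. For this reason members are compared below with the 8240 other genes before the step that had at least 10 FPKM in dry seeds, and the absence of members from chromosomes 14 to 20 is not a result about those chromosomes.

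**Figure D1:**
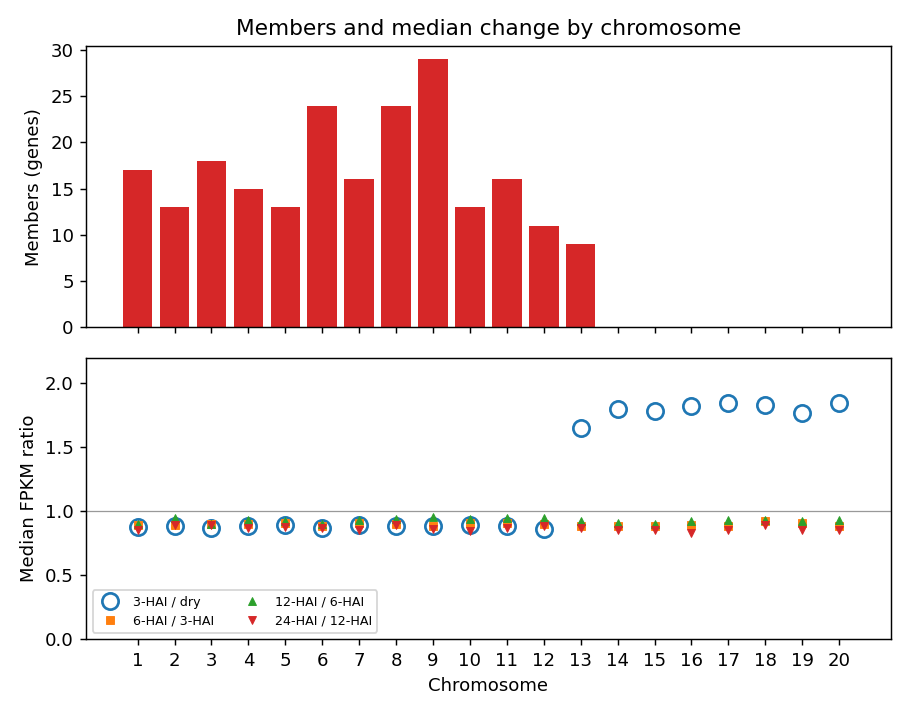
Members per chromosome (upper bars, number of genes) and, for genes with at least 1 FPKM at 3-HAI, the median FPKM ratio of each chromosome in each interval (lower points). The 3-HAI to dry ratio sits between 0.862 and 0.895 on chromosomes 1 to 12 and between 1.77 and 1.85 on chromosomes 14 to 20, where there are 0 members, while the other ratios stay on 1 level.

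When dry values beyond the step were multiplied by 2.06, which sets both medians equal, a correction chosen after the data were seen, the same rule gave 412 genes in place of 218. These held all 218 members, and 186 of the 412 lay beyond the step. The 186 made up 3.87% of the genes beyond the step with at least 10 FPKM after this multiplication, against 2.67% for those before it. The factor was taken from genes with at least 1 FPKM at 3-HAI. In genes with at least 10 FPKM in dry seeds as deposited, the median of 3-HAI over dry was 1.54 beyond the step and 0.786 before it. How far the shares depend on the factor was not tested. The medians of the 186 were 0.690 for 6-HAI over 3-HAI, 0.535 for 12-HAI over 6-HAI and 0.394 for 24-HAI over 12-HAI. In all genes beyond the step with at least 1 FPKM at 3-HAI they were 0.894, 0.924 and 0.861. The rule also uses the 3-HAI, 12-HAI and 24-HAI values. These ratios of the 186 are therefore not free of the choice and are given as a description.

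The decrease from dry seeds to 3-HAI chose the members and is given as a description. Over all genes reaching 1 FPKM at either time point, 439 (1.65%) were at least 2.4-fold lower at 3-HAI and 14.4% were higher by that much, and among genes before the step with at least 10 FPKM in dry seeds 269 (3.18%) were lower. Of these 269, 35 were among the 100 genes highest in dry seeds and 16 others rose at least 2.4-fold in the last interval, which leaves the 218. The median decrease of the members was 2.65-fold, the quartiles were 2.51-fold and 2.99-fold, and 103 members (47.2%) lay within 10% of the 2.4-fold limit. Only 4 members exceeded 4-fold, and the largest decrease was 4.81-fold. The median of the other genes was 0.793 of the dry value at 3-HAI, so most of them were lower there too. With the time points scaled to equal sums the medians were 0.465 of the dry value in members and 0.977 in the other genes. After median-ratio scaling they were 0.286 and 0.601, and after quantile normalization 0.401 and 0.789. The general part of the decrease thus depended on scaling. All of these scalings take in the dry values beyond the step, which were not adjusted. With equal sums all 218 members had a lower value at 3-HAI, but only 52 of them (23.9%) still met the rule. A lower FPKM is a lower share of the RNA sequenced: less RNA of a gene, more RNA of other genes, and a change in the cells that hold it cannot be told apart in these bulk samples.

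The word cleared does not describe these transcripts at 3-HAI. Not 1 of the 218 was under 1 FPKM there, and 155 were still at or above 10 FPKM. The members' median was 55.1 FPKM in the dry axis, then 19.1, 14.5, 7.90 and 2.83 FPKM at 3, 6, 12 and 24 HAI. For the other genes the median was 29.4 FPKM in the dry axis, then 25.4, 21.2, 17.9 and 13.3 FPKM at 3, 6, 12 and 24 HAI. The members thus started above the other genes, stood below them from 3-HAI on, and had a lower median at each later time point. These contrasts, at 24-HAI too, are partly set by the rule. It required the drop to 3-HAI and barred a 2.4-fold rise from 12-HAI to 24-HAI. At 24-HAI 56 members (25.7%) were under 1 FPKM, against 1.53% of the other genes, and 0 members were listed at 0. Together the members made up 3.06% of the summed FPKM of all genes in the dry axis, then 1.32%, 1.19%, 0.670% and 0.251% at 3, 6, 12 and 24 HAI. The dry sum includes the genes beyond the step, with dry values that were lower relative to later ones. The dry share is therefore not on the same footing as the later shares.

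**Figure D2:**
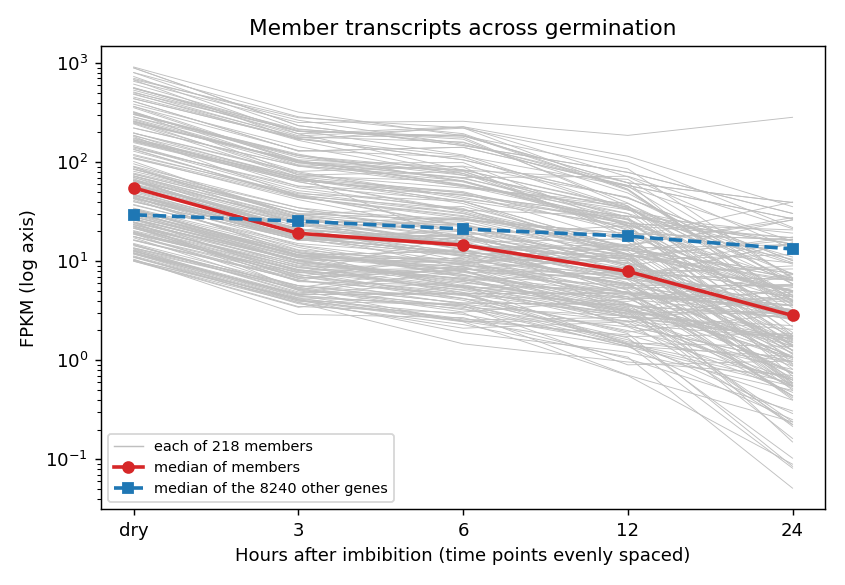
FPKM (log axis) of each of the 218 members (grey lines) at the 5 time points, which are drawn evenly spaced, with the median of the members (red) and of the 8240 other genes with at least 10 FPKM in dry seeds before the step (blue, dashed). The members' median goes through 55.1, 19.1, 14.5, 7.90 and 2.83 FPKM and passes below that of the other genes at 3-HAI. The rule required each member's drop to 3-HAI.

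The most abundant member was Glyma01g11390, on the minus strand of chromosome 1 from 14807029 to 14809655. It had 915 FPKM in the dry axis, then 320.4, 185, 85.7 and 6.66 FPKM at 3, 6, 12 and 24 HAI. It was lower at every time point than at the one before, and its largest fold decrease was in the last interval, while the largest difference in FPKM was in the first. Glyma05g18376 (chromosome 5 from 21864058 to 21864844) and its neighbour Glyma05g18393 (from 21865023 to 21865868) share all 5 values, which therefore cannot be assigned to either gene alone. Their shared value was 895 FPKM in the dry axis, then 234, 147, 78.9 and 30.4 FPKM at 3, 6, 12 and 24 HAI. This pair lost more by 3-HAI (3.83-fold) than Glyma01g11390 (2.85-fold) and kept more at 24-HAI.

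Glyma07g04860, on chromosome 7 from 3586372 to 3587422, had 804 FPKM in the dry axis, then 287, 194, 53.3 and 4.04 FPKM at 3, 6, 12 and 24 HAI. Glyma01g30670, on chromosome 1 from 41495109 to 41496829, had 803 FPKM in the dry axis, then 217, 157, 56.3 and 15.9 FPKM at 3, 6, 12 and 24 HAI. Both fell throughout, Glyma01g30670 more steeply at first (3.71-fold against 2.80-fold) and Glyma07g04860 more steeply at the end. Glyma08g08621, on chromosome 8 from 6145936 to 6147776, had 702 FPKM in the dry axis, then 265, 151, 62.1 and 2.83 FPKM at 3, 6, 12 and 24 HAI, the lowest final value of the 12 most abundant members.

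Another 4 of these 12 were higher at 6-HAI than at 3-HAI. Glyma02g43470, on chromosome 2 from 48227858 to 48229018, had 677 FPKM in the dry axis, then 168, 228, 71.2 and 13.2 FPKM at 3, 6, 12 and 24 HAI. Its 4.03-fold decrease to 3-HAI was among the 4 largest of all members. Glyma06g08160, which spans only 131 bases of chromosome 6 from 5995455 to 5995585, had 733.5 FPKM in the dry axis, then 193, 228, 115 and 35.6 FPKM at 3, 6, 12 and 24 HAI. Glyma07g12590, which spans 117 bases of chromosome 7 from 10982978 to 10983094, had 568 FPKM in the dry axis, then 185, 221, 101 and 21.9 FPKM at 3, 6, 12 and 24 HAI. These 3 dipped at 3-HAI, recovered in part at 6-HAI and then fell.

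Glyma03g04920, on chromosome 3 from 5122291 to 5124070, was the other and went a different way. It had 655 FPKM in the dry axis, then 251, 259, 186 and 284 FPKM at 3, 6, 12 and 24 HAI. It was the only member still above 100 FPKM at 24-HAI, at 0.433 of its dry value.

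**Figure D3:**
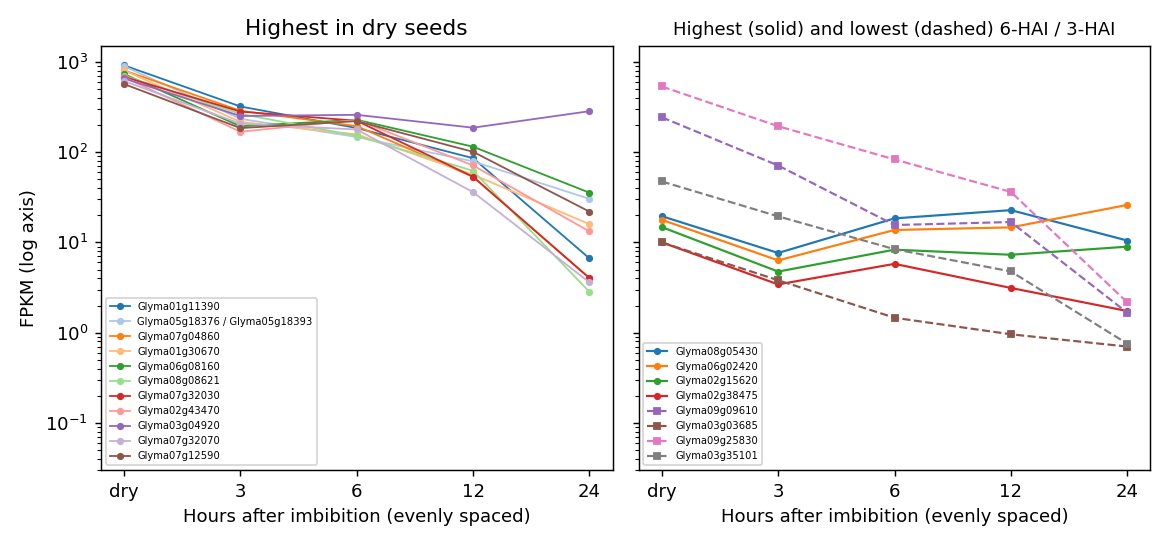
FPKM (log axis) at the 5 time points, drawn evenly spaced, of the 12 members highest in dry seeds (left; Glyma05g18376 and Glyma05g18393 have identical values) and of the 4 members with the highest (right, solid) and the 4 with the lowest (right, dashed) ratio of 6-HAI to 3-HAI. On the left Glyma03g04920 ends at 284 FPKM and the others end between 2.83 and 35.6 FPKM.

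The 6-HAI value took no part in the choice of members, but the 3-HAI value did and had to be low, so ratios of 6-HAI to 3-HAI are not free of the choice and are given as a description. The 6-HAI value was lower than at 3-HAI in 178 of the 218 (81.7%), against 76.9% of the other genes. The median ratio of 6-HAI to 3-HAI was 0.697 in members (quartiles 0.593 and 0.873), against 0.804 in the other genes (quartiles 0.671 and 0.981). The ranges of members and other genes overlapped widely. At least 2.4-fold changes were rare: 2 members were lower by that much, against 0.834% of all genes reaching 1 FPKM and 0.414% of genes before the step with at least 10 FPKM in dry seeds, and 1 member was higher, against 7.18% and 0.485%. Shares this near the background are no result about the members.

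Both members past the 2.4-fold limit downward spanned under 1000 bases. Glyma09g09610, on chromosome 9 from 9440990 to 9441540, had 243 FPKM in the dry axis, then 71.1, 15.6, 16.8 and 1.67 FPKM at 3, 6, 12 and 24 HAI. Its decrease from 3-HAI to 6-HAI was 4.57-fold, more than from dry seeds to 3-HAI. Glyma03g03685, on chromosome 3 from 3463144 to 3463878, stood at 10.0007 FPKM in the dry axis, then 3.81, 1.47, 0.961 and 0.703 FPKM at 3, 6, 12 and 24 HAI. At 24-HAI the first was 146-fold below its dry value and the second 14.2-fold. Next in order, just short of the limit, came Glyma09g25830, on chromosome 9 from 32057748 to 32062304, with 534 FPKM in the dry axis, then 194, 83.0, 36.2 and 2.17 FPKM at 3, 6, 12 and 24 HAI. Glyma03g35101, on chromosome 3 from 42428689 to 42433746, had 47.3 FPKM in the dry axis, then 19.4, 8.41, 4.77 and 0.757 FPKM at 3, 6, 12 and 24 HAI.

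In the other direction, Glyma08g05430, on chromosome 8 from 3891228 to 3892127, had 19.5 FPKM in the dry axis, then 7.64, 18.5, 22.8 and 10.5 FPKM at 3, 6, 12 and 24 HAI. It had regained nearly its dry level by 6-HAI, 2.42 times the value at 3-HAI. Glyma06g02420, on chromosome 6 from 1618036 to 1620163, had 17.8 FPKM in the dry axis, then 6.33, 13.7, 14.7 and 26.0 FPKM at 3, 6, 12 and 24 HAI, and ended 1.46 times as high as it began. At 6-HAI these were the only members above 2 times their 3-HAI value. Glyma02g15620, which spans 258 bases of chromosome 2 from 14111955 to 14112212, had 14.8 FPKM in the dry axis, then 4.76, 8.31, 7.30 and 8.97 FPKM at 3, 6, 12 and 24 HAI. Glyma02g38475, on the same chromosome from 43883930 to 43885873, had 10.0246 FPKM in the dry axis, then 3.43, 5.79, 3.13 and 1.74 FPKM at 3, 6, 12 and 24 HAI. All 4 of these were under 20 FPKM in dry seeds, and of them only Glyma02g38475 ended far below its dry value.

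After 6-HAI the members separated further from the other genes. The median ratio of 12-HAI to 6-HAI was 0.472 in members (quartiles 0.383 and 0.653), against 0.831 in the other genes (quartiles 0.683 and 0.9997). At least 2.4-fold lower at 12-HAI were 76 members (34.9%), against 3.66% of all genes reaching 1 FPKM and 4.65% of genes before the step with at least 10 FPKM in dry seeds. By that much 0 members were higher, against 8.5% and 0.331%. With equal sums per time point, 31 members (14.2%) were lower by that much, against 1.59% of the other genes. From 12-HAI to 24-HAI the median ratio was 0.303 in members, against 0.745 in the other genes. Here 127 members (58.3%) were at least 2.4-fold lower, against 9.41% and 17.3%. The rule barred members from rising 2.4-fold in this last interval, so its upper side is set by the choice. That limit also uses the 12-HAI value, so ratios of 12-HAI to 6-HAI are not wholly free of the choice either. The 16 genes that the limit left out had a median ratio of 12-HAI to 6-HAI of 0.892.

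In the other genes the ratio of 12-HAI to 6-HAI was the lower the higher the dry level, and members had higher dry levels, so the ratios were also set out by dry level. Among genes of 20 to 50 FPKM in dry seeds, the median ratio of 12-HAI to 6-HAI was 0.558 in the 63 members, against 0.848 in the others. Among genes of 100 to 200 FPKM it was 0.411 in the 28 members, against 0.7002 in the others. Above 500 FPKM, where the others include the genes highest in dry seeds, it was 0.347 in 18 members and 0.425 in the others. The members' median was the lower in each of the 6 level classes for this interval and for the last, while for 6-HAI over 3-HAI it was higher above 500 FPKM (0.795 in members, 0.669 in the others). The others' median for 12-HAI over 6-HAI also varied with gene span, between 0.692 at 300 to 1000 bases and 0.964 above 8000 bases. In those classes the members' medians were 0.431 and 0.661, and they were the lower in each span class. Dry level and span were not set out jointly.

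**Figure D4:**
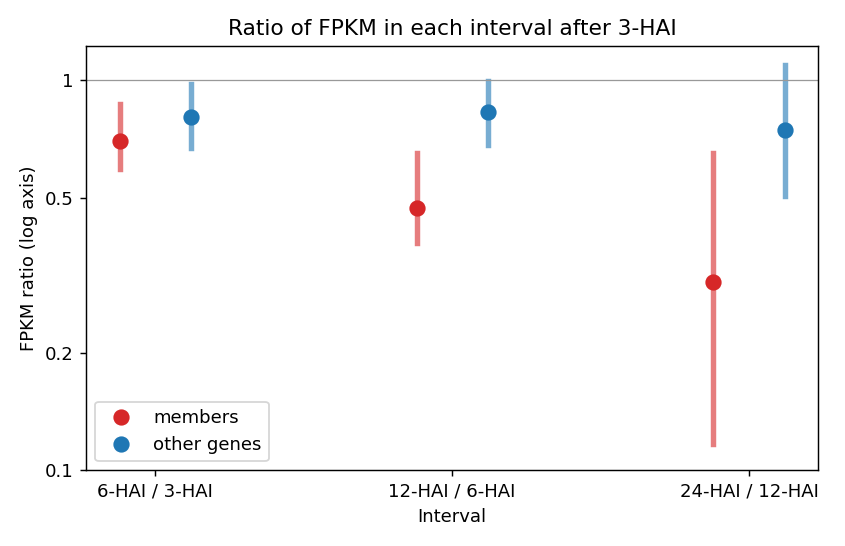
FPKM ratio (log axis) in the 3 intervals after 3-HAI for the 218 members (red, left) and the 8240 other genes with at least 10 FPKM in dry seeds before the step (blue, right); points are medians and bars run between the quartiles. The medians are 0.697 and 0.804 at 6-HAI over 3-HAI, 0.472 and 0.831 at 12-HAI over 6-HAI, and 0.303 and 0.745 at 24-HAI over 12-HAI.

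By 24-HAI 164 members (75.2%) were at least 10-fold below their dry value, where 12% of genes before the step with at least 10 FPKM in dry seeds were, and 45 (20.6%) were at least 100-fold below it, against 0.934% of the other genes. These contrasts are partly set by the rule, which placed members below their dry value at 3-HAI and barred a 2.4-fold rise at 24-HAI. The deepest relative loss was that of Glyma02g34780, on chromosome 2 from 39295020 to 39296562, with 102 FPKM in the dry axis, then 27.3, 14.7, 5.18 and 0.150 FPKM at 3, 6, 12 and 24 HAI, 679-fold lower than in dry seeds. Glyma06g43641 fell 529-fold, with 0.925 FPKM at 24-HAI against 489 FPKM in dry seeds, and Glyma04g02060 fell 514-fold, with 0.691 FPKM at 24-HAI against 355 FPKM in dry seeds. These last genes lie outside the rule for named genes and were named after their values were seen. In all 3 the drop by 3-HAI was between 2.95-fold and 3.72-fold, and the largest fold decrease between neighbouring time points came from 12-HAI to 24-HAI.

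The members fell into 5 courses. In 152 (69.7%) the value was lower at every step, of which the rule fixed the first, against 41.8% of the other genes, with medians of 71.3 FPKM in the dry axis, then 25.8, 15.6, 8.55 and 1.74 FPKM at 3, 6, 12 and 24 HAI. In 34 the value was higher at 6-HAI than at 3-HAI and not higher at 24-HAI than at 12-HAI, with medians of 52.3 FPKM in the dry axis, then 16.3, 18.5, 7.36 and 3.25 FPKM at 3, 6, 12 and 24 HAI. In 20 it was not higher at 6-HAI but was higher at 24-HAI than at 12-HAI, 6 rose in both of these intervals, and 6 rose only between 6-HAI and 12-HAI. Just 3 members were highest at a time other than dry: Glyma08g05430, Glyma06g02420 and Glyma06g15411.

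Glyma06g15411, on chromosome 6 from 12155839 to 12158871, had 14.3 FPKM in the dry axis, then 5.42, 9.05, 6.96 and 15.0 FPKM at 3, 6, 12 and 24 HAI. Glyma05g35501, on chromosome 5 from 39519110 to 39520467, had 27.0 FPKM in the dry axis, then 10.3, 10.0013, 11.6 and 26.3 FPKM at 3, 6, 12 and 24 HAI. Both returned to about the dry level at 24-HAI.

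The largest decreases to 3-HAI belonged to genes of very different level. Glyma12g31000, on chromosome 12 from 34636495 to 34637228, fell 4.81-fold by 3-HAI. Its values were 24.8 FPKM in the dry axis, then 5.17, 7.76, 3.50 and 2.91 FPKM at 3, 6, 12 and 24 HAI, so it had recovered in part at 6-HAI. Glyma12g32740, on the same chromosome from 36184219 to 36184778, fell 4.27-fold, with 319 FPKM in the dry axis, then 74.8, 54.8, 38.3 and 6.43 FPKM at 3, 6, 12 and 24 HAI. This gene fell at each step.

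Glyma10g43340, which spans 117 bases of chromosome 10 from 50058763 to 50058879, had 68.2 FPKM in the dry axis, then 16.4, 21.2, 12.99 and 4.90 FPKM at 3, 6, 12 and 24 HAI. Glyma05g16213, on chromosome 5 from 18297611 to 18298049, had 181 FPKM in the dry axis, then 45.5, 33.5, 11.5 and 6.34 FPKM at 3, 6, 12 and 24 HAI. The first of these rose again at 6-HAI and the second did not. Glyma08g07590, on chromosome 8 from 5445857 to 5448085, had 89.6 FPKM in the dry axis, then 23.4, 13.3, 5.44 and 3.58 FPKM at 3, 6, 12 and 24 HAI. Glyma02g12360, with an entry on each strand of chromosome 2 from 10633351 to 10633820, had 27.1 FPKM in the dry axis, then 7.06, 11.0, 4.72 and 2.57 FPKM at 3, 6, 12 and 24 HAI, and so was another that dipped at 3-HAI. The others of the 12 steepest were Glyma13g12070 and Glyma02g34780, with decreases of 3.90-fold and 3.72-fold, besides Glyma02g43470, the pair of Glyma05g18376 and Glyma05g18393, and Glyma06g08160, given above.

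Members were more frequent among genes high in dry seeds. Before the step, 2.58% of genes with at least 10 FPKM in dry seeds were members. The share was 1.56% at 10 to 20 FPKM, 2.05% at 20 to 50 FPKM, 2.52% at 50 to 100 FPKM, 4.40% at 100 to 200 FPKM, 7.19% at 200 to 500 FPKM and 10.3% above, where 81 of 174 genes were left out as being among the highest 100. Since the dry value enters the rule on both counts, this is a description.

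Members were also short. Their span from start to end had a median of 1914 bases, against 4019 bases in the other genes, and 11 (5.05%) spanned under 300 bases, against 0.716% of the others. The share of members was 15.7% of the 70 genes under 300 bases, 9.55% of those of 300 to 1000 bases, 5.70% at 1000 to 2000 bases, 2.05% at 2000 to 4000 bases, 1.24% at 4000 to 8000 bases and 0.838% above. Span took no part in the rule, but it was not set out by dry level, so span and dry level are not told apart here. FPKM of a gene not much longer than a sequenced fragment are hard to estimate, and the part of this in the result was not tested.

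**Figure D5:**
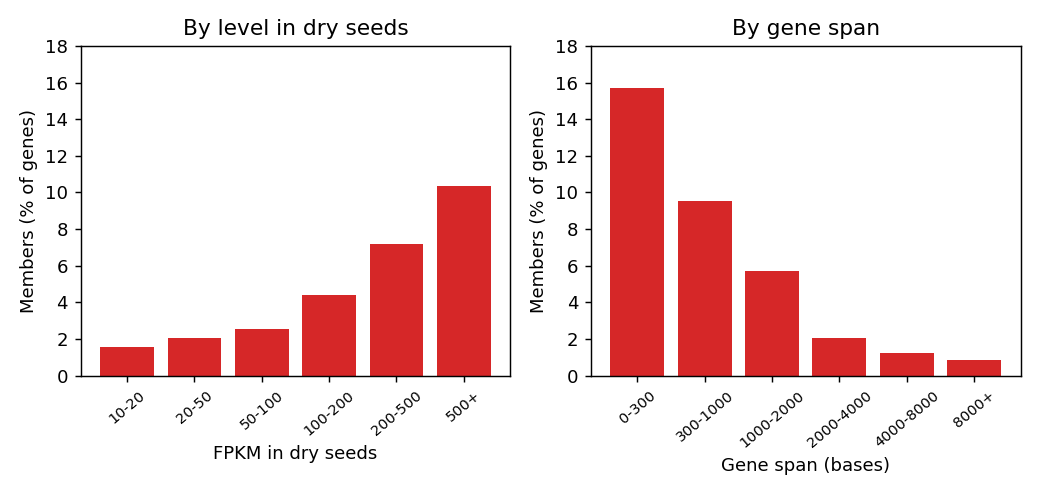
Members as a percentage of genes before the step with at least 10 FPKM in dry seeds, by FPKM in dry seeds (left) and by gene span in bases (right). The bars rise with the dry level between 1.56% and 10.3% and fall with span between 15.7% and 0.838%.

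Among members, short span was more frequent where the 6-HAI value was above the 3-HAI value. The rule required a low 3-HAI value, and its part in this was not tested. Of the 40 members higher at 6-HAI than at 3-HAI, 10 (25%) spanned under 300 bases, and of the 178 not higher there, 1 (0.562%) did. Some of the 10 share all their values with a longer neighbour, so those values cannot be assigned to the short gene alone. The 10 include Glyma06g08160, Glyma07g12590 and Glyma10g43340, described above. Glyma01g34400, on chromosome 1 from 46763232 to 46763483, had 248 FPKM in the dry axis, then 80.8, 91.3, 44.4 and 7.36 FPKM at 3, 6, 12 and 24 HAI. Glyma08g41403, on chromosome 8 from 41387730 to 41388018, had 65.5 FPKM in the dry axis, then 19.9995, 23.9, 8.62 and 1.43 FPKM at 3, 6, 12 and 24 HAI. The exception was Glyma01g39300, with 3.42 FPKM at 6-HAI against 5.45 FPKM at 3-HAI. These 3 were named after their values were seen.

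The median ratio of 6-HAI to 3-HAI was 1.18 in the 11 members under 300 bases, against 0.782 in the other genes of that span. The other genes were not chosen for a low 3-HAI value, so the contrast is partly set by the rule. Without these 11, the median ratio of the remaining 207 members was 0.676.

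In 36 members all 5 values were shared with another gene, and the 218 members hold 199 distinct courses. Each of the 17 sets of members with equal values, the largest of 3 genes, counts a single measurement more than once. Of the 199 courses, 29 (14.6%) lay within 100 kb of a member with other values, against 11.9% of the 7314 distinct courses of the other genes. Glyma07g32030, Glyma07g32070 and Glyma07g32110 lie together on chromosome 7 from 36962459 to 37001669. Glyma07g32030 had 683 FPKM in the dry axis, then 281, 222, 53.3 and 4.02 FPKM at 3, 6, 12 and 24 HAI. Glyma07g32070 had 614 FPKM in the dry axis, then 207, 178, 36.1 and 3.61 FPKM at 3, 6, 12 and 24 HAI. Glyma07g32110, the lowest, had 288 FPKM in the dry axis, then 98.0, 99.1, 22.4 and 1.40 FPKM at 3, 6, 12 and 24 HAI.

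In these 3 the change between 3-HAI and 6-HAI was the smallest of the 4 intervals. On chromosome 8, Glyma08g07330 (start 5260106) had 511 FPKM in the dry axis, then 177, 189, 52.0 and 3.86 FPKM at 3, 6, 12 and 24 HAI, and its neighbour Glyma08g07350 (start 5268144) had 484 FPKM in the dry axis, then 180.3, 160, 48.9 and 5.92 FPKM at 3, 6, 12 and 24 HAI. Their course was much like that of the genes on chromosome 7. Whether the reads of such neighbours can be told from each other was not tested.

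A further group lies on chromosome 13 from 14924676 to 15651375, next to the step in the dry values. It holds 69 genes, 12 of them with at least 1 FPKM in dry seeds, and 10 of these 12 were at least 2.4-fold lower at 3-HAI. Another 5 genes of the stretch had at least 1 FPKM at 3-HAI and were listed at 0 in dry seeds, among them Glyma13g12018 with 478 FPKM at 3-HAI and Glyma13g12056 with 26.1 FPKM. The 6 members in the stretch, Glyma13g11958, Glyma13g12010, Glyma13g12025, Glyma13g12051, Glyma13g12070 and Glyma13g12160, fell between 2.94-fold and 3.90-fold. Glyma13g12010 had 324 FPKM in the dry axis, then 94.0, 83.8, 35.1 and 9.66 FPKM at 3, 6, 12 and 24 HAI. Glyma13g12070 had 44.9 FPKM in the dry axis, then 11.5, 10.1, 4.15 and 1.11 FPKM at 3, 6, 12 and 24 HAI. Both fell at every step, as did the other 4 members of the stretch. Glyma13g11965, left out as being among the 100 highest, had 5442 FPKM in the dry axis, then 1455, 1051, 481 and 142 FPKM at 3, 6, 12 and 24 HAI. The stretch was singled out after its values were seen, and whether its place beside the step has a part in this was not tested.

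Genes lay close to the limits on both sides. Just inside the 2.4-fold limit were Glyma01g00820 (71.9 FPKM at 3-HAI against 172.6 FPKM in dry seeds) and Glyma09g31590 (7.78 against 18.7 FPKM), and just outside were Glyma06g06310 (4.52 against 10.8 FPKM) and Glyma09g34950 (17.2 against 41.1 FPKM). At the dry minimum, Glyma03g03685 and Glyma02g38475 (10.0007 and 10.0246 FPKM) were in, while Glyma04g03070 (9.86 FPKM) and Glyma11g19735 (9.50 FPKM) were out. Glyma04g03070 otherwise followed the members, with 2.89 FPKM left at 3-HAI and 0.0145 FPKM by 24-HAI. By the ratio of 24-HAI to 12-HAI, Glyma05g31200 (2.34) and Glyma06g38540 (2.33) were in, and Glyma05g01980 (2.44) and Glyma09g22306 (2.72) were out. At the limit of the 100 highest in dry seeds, Glyma01g11390 (rank 101) was in. Glyma02g38360 and Glyma02g38370, which share 973 FPKM in dry seeds and rank 93, were out. They were the lowest in dry seeds of the genes that this limit alone left out.

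The rule set aside 2 groups. The 35 genes among the 100 highest had a median decrease of 2.91-fold to 3-HAI, and their median ratios were 0.632 for 6-HAI over 3-HAI, 0.309 for 12-HAI over 6-HAI and 0.0772 for 24-HAI over 12-HAI. In the 16 that rose at the end the medians were 2.60-fold, 0.706, 0.892 and 3.85 in the same order. The last is set by the rule, which left these genes out for a rise of at least 2.4-fold from 12-HAI. The members' medians were 2.65-fold, 0.697, 0.472 and 0.303. The differences between these groups were not tested.

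The members can be set beside 6 genes that the study identifies. These are genes of ABA response or breakdown and an ethylene response factor gene. Other ABA genes that the study names are not set out here. None of the 6 meets the rule, and 2 of them lie beyond the step, where 0 genes met it. The ABI3 gene Glyma08g47240 had 62.1 FPKM in the dry axis, then 54.1, 50.9, 26.3 and 2.70 FPKM at 3, 6, 12 and 24 HAI. Glyma09g41960, a CYP707A2 gene for an enzyme that inactivates ABA, had 91.8 FPKM in the dry axis, then 91.3, 66.7, 31.5 and 2.59 FPKM at 3, 6, 12 and 24 HAI. Both were near their dry level at 3-HAI, where the members had dropped, and near the members' median at 24-HAI. Glyma01g43460, for an ABA-induced protein phosphatase, came nearest to the rule, with 295 FPKM in the dry axis, then 139, 87.1, 29.5 and 2.43 FPKM at 3, 6, 12 and 24 HAI, a first decrease of 2.12-fold.

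The ethylene response factor gene Glyma02g08835 went the other way at first, with 72.9 FPKM in the dry axis, then 237, 87.9, 55.4 and 7.56 FPKM at 3, 6, 12 and 24 HAI. The other ABI3 gene, Glyma18g38490, and the ABA receptor (PYL) gene Glyma16g02910 lie beyond the step. Glyma18g38490 had 143 FPKM at 3-HAI against 78.8 FPKM in dry seeds, a ratio of 1.81 where the median gene beyond the step had 1.82. Glyma16g02910 had 81.3 FPKM at 3-HAI against 58.4 FPKM in dry seeds, a ratio of 1.39.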

How the data were processed

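RNA of embryonic axes was sequenced in 10 paired-end libraries. The authors cropped the start of every read with Trimmomatic 0.30, aligned to G. max genome 1.1 by TopHat2 2.0.9 and Bowtie2 2.1.0, and made FPKM with Cufflinks 2.1.1. The deposited FPKM are 1 value per gene and time point. Whether and how both replicates entered it is not given in the sources used here. The files hold no counts, so the reads behind each gene's value are unknown. 0 columns belonged to no mapped time point. Of 54801 entries, 647 genes had 2, of which the entry with the higher maximum was kept. Ratios were taken with no pseudocount, and a change was counted at 2.4-fold with the higher value at least 1 FPKM. The limit of 2.4 is the smallest change named for the calls of the study.

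With 1 value per time point no test was possible. The step on chromosome 13 was placed where the summed absolute deviation of log2 ratios from 2 medians is least. Members, lists and limits were chosen with earlier results of these data known. Genes were named by rule: the 12 members highest in dry seeds and the 12 with the largest decrease. To these came the 4 highest and 4 lowest in 6-HAI over 3-HAI and the 4 highest in 24-HAI over dry. Also named were the 2 on either side of each limit. From the text of the study came 6 genes of ABA response, ABA breakdown or ethylene response. Exceptions are stated. Gene classes and promoter motifs, which were foreseen, were not analysed here, since 0 identifiers matched RefSeq. Alternatives were other scalings, limits and pseudocounts. Python 3.11.15, numpy 2.4.6, pandas 2.3.3 and matplotlib 3.10.9 were used. The code for the rule and for placing the step was run on simulated data, for the rule on flat profiles without noise. That run checks the code only and bears on no result given here.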

Additional observations from a re-analysis of the deposited data

How the results depend on the processing

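The number of members depended on scaling and on the limit. The 218 became 1018 after median-ratio scaling, 143 after quantile normalization, 52 with equal FPKM sums per time point, 591 at a 2-fold limit, 54 at 3-fold, and, chosen after the data were seen, 4 at 4-fold and 412 with the dry values beyond the step multiplied. All 218 were among the 1018, 137 were among the 143 and 52 among the 52. The 439 genes lower at 3-HAI became 1824, 836 and 127 under the same scalings, 233 with a pseudocount of 1, 1127 at 2-fold, 134 at 3-fold, 2152 with no minimum and 807 with the dry values multiplied. Equal totals gave 1 member lower and 2 higher at 6-HAI than at 3-HAI, in place of 2 and 1, and 31 lower at 12-HAI in place of 76. A pseudocount of 1 gave 1 lower and 0 higher at 6-HAI. The median ratio of 6-HAI to 3-HAI was 0.775 after quantile normalization, against 0.924 in the other genes, and 0.844 with equal totals, against 0.974. The cause of these shifts was not tested. The count of members lower at 24-HAI stayed within 1.5 times its value under each alternative run. No paired analysis was possible because each time point has 1 value and none per replicate. Leaving out a replicate could not be run for the same reason.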

Other observations

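The transcripts beyond the step that met the rule only after the dry values were multiplied by 2.06 include several with the course of the members. Glyma19g41550, on chromosome 19 from 47789168 to 47792321, had 340 FPKM in the dry axis as deposited, then 249.5, 140, 42.2 and 2.41 FPKM at 3, 6, 12 and 24 HAI. Glyma13g25530, Glyma13g25540 and Glyma13g25520 are neighbours on chromosome 13 that span 129, 266 and 135 bases. Glyma13g25540 had 255 FPKM in the dry axis as deposited, then 112, 149, 42.3 and 8.37 FPKM at 3, 6, 12 and 24 HAI, the dip and partial recovery that 10 of the 11 shortest members had. Other such genes ended high: Glyma13g29330 had 152 FPKM in the dry axis as deposited, then 121, 133, 118 and 270.4 FPKM at 3, 6, 12 and 24 HAI. These genes were chosen after their values were seen.

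The step also bears on rises. Of the 3844 genes at least 2.4-fold higher at 3-HAI than in dry seeds, 2636 lay beyond it, among 20149 genes, and 1186 before it, among 33757 genes. With the dry values beyond it multiplied, 1900 genes were higher and 807 lower, against 3844 and 439 as deposited.

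Of the 16 genes that met both dry limits and then rose in the last interval, Glyma10g35871 rose furthest in level, with 335 FPKM in the dry axis, then 126.1, 104, 135 and 1931 FPKM at 3, 6, 12 and 24 HAI.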
